A study of Mus musculus with 12 samples.

Results

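The transforming growth factor beta (TGF-beta) gene set followed here has 10 members, chosen by symbol and not by any measured value, and all 10 were found among the 24421 gene symbols of the expression table. They were measured by bulk RNA sequencing in 12 tumours of 425-ICC, a mouse model of intrahepatic cholangiocarcinoma (bile duct cancer arising within the liver), collected after 8 days of treatment. The 4 groups of 3 tumours were Control (control immunoglobulin), GC (chemotherapy, named by its abbreviation only and read here as gemcitabine plus cisplatin), ICB (dual immune checkpoint blockade, against CTLA-4 and PD1 as the study's title has it) and Combination (both). Nothing in the sources used here says how the tumours were grown, whether each sample is a separate animal, or what strain, sex and age the mice had, so a p-value here reflects only how far these samples spread, which may be technical. Levels are FPKM, which corrects fragment counts for gene length and library total.

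TGF-beta is made in a latent form, held in the matrix by latent TGF-beta binding proteins and released by integrins or proteases. The freed ligand brings together the receptors TGFBR2 and TGFBR1, which phosphorylate SMAD2 and SMAD3, and these enter the nucleus with SMAD4. Among the genes they induce are inhibitors of the pathway itself, SMAD7 and SKIL (SnoN), so that the signal limits itself. In cholangiocarcinoma the pathway is best known for activating the fibroblasts of the dense tumour stroma and for restraining T cells. The members are the ligand genes Tgfb1, Tgfb2 and Tgfb3, the activin A subunit gene Inhba, the matrix gene Ltbp2, the receptor genes Tgfbr1 and Tgfbr2, the feedback genes Smad7 and Skil, and Tgfbi, which encodes a secreted matrix protein named for its induction by TGF-beta.

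Some libraries stood apart before any comparison. Hepatocyte marker transcripts (20 genes, albumin among them) summed to 148 to 252 FPKM in Control, 1180 to 9526 FPKM in GC, 884 to 3490 FPKM in ICB, and 5082, 109988 and 44896 FPKM in Combination replicates 1, 2 and 3. Combination replicate 1 also held small intestinal transcripts (6363 FPKM over 16 genes, against at most 603 elsewhere), and Control replicate 2 and GC replicate 2 held skeletal muscle transcripts. Of the bile duct and tumour markers, Sox9 (7.56 to 91.9 FPKM) and Spp1 (276 to 7598 FPKM) were present in every library, while the biliary keratin Krt19 was listed at 0 in Control replicates 2 and 3 and Epcam at 0 in Control replicate 3 and ICB replicate 1. In bulk tissue, fewer cells of a type and less RNA per cell cannot be told apart.

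No member of the set differed between treatments by the test used. In each of 5 comparisons (GC, ICB and Combination against Control, and Combination against GC and against ICB) limma called 0 of 10 members at an adjusted p under 0.05, and in a moderated F test over the 4 groups it also called 0 of 10, with adjusted p from 0.453 for Smad7 to 0.756 for Tgfb2. At an unadjusted p under 0.05 the count was likewise 0 of 10 in each comparison and in the F test. That second count depended on the libraries in the fit and on the processing. Without Combination replicate 3 it was 3 of 10 against Control (29.7% of all genes), 5 of 10 against GC (17.7%) and 5 of 10 against ICB (24%). Without Combination replicate 1 it was 1 of 10 against GC (Tgfbi, 43%) and against ICB (Tgfb3, 36.9%). Without GC replicate 1 it was 1 of 10 for Combination against GC (Tgfbr2, 10.5%). With only GC and Control in the fit it was 1 of 10, Inhba (18.8% of all genes). With all libraries kept, Smad7 passed for Combination against ICB under quantile scaling (28.8%) and with the replicate block (19.7%). With a hepatocyte covariate Tgfbi passed against Control in GC (29%), ICB (11.2%) and Combination (13.7%). Of all 12765 genes tested, 1.83% passed the F test at the adjusted threshold and 17.1% at the unadjusted one. Libraries of 1 group differed widely, so the levels are given library by library. The levels of all 10 genes are drawn by group and replicate.

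**Figure D1:**
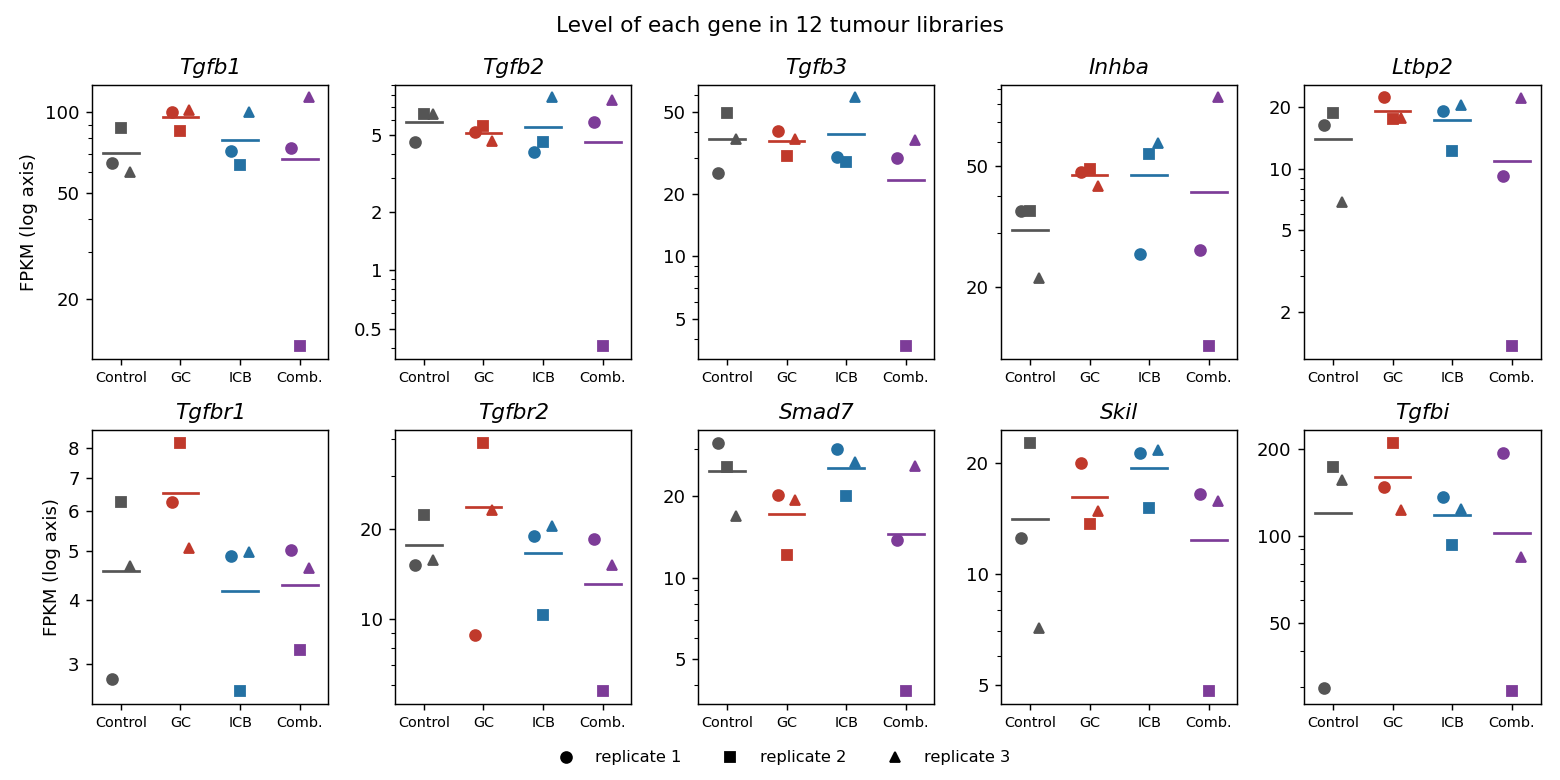
FPKM (log axis) of each gene in the 12 libraries, with 1 point per library, shape for the replicate number and a line at the group mean of 3. Combination replicate 2, the purple square, is the lowest of the 12 in every panel except that of Tgfbr1.

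Among the ligands, Tgfb1 was the most abundant. Tgfb1 (chromosome 7, 25687002 to 25705077, GRCm38), the main ligand of immune and stromal cells, stood at 64.7, 87.6 and 59.7 FPKM in Control, 100.3, 85.1 and 102 FPKM in GC, 72.0, 63.7 and 101 FPKM in ICB, and 73.4, 13.4 and 114 FPKM in Combination. GC replicates 1 and 3 lay above every Control library, and GC replicate 2 fell inside the Control range. Group means were 70.7 ± 14.9 FPKM in Control, 95.9 ± 9.38 FPKM in GC, 78.8 ± 19.4 FPKM in ICB and 66.9 ± 50.6 FPKM in Combination (SD, n = 3 each). Combination held both the lowest and the highest of the 12 values.

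Tgfb3 (chromosome 12, 86056745 to 86079041), a ligand known from fibroblasts and wound repair, stood at 25.2, 49.1 and 36.9 FPKM in Control, 40.5, 30.5 and 37.0 FPKM in GC, 30.3, 28.5 and 58.8 FPKM in ICB, and 30.03, 3.68 and 36.5 FPKM in Combination. All groups overlapped. Tgfb2 (chromosome 1, 186622792 to 186705989), the ligand that needs the co-receptor betaglycan for strong binding, was the weakest ligand at 4.60, 6.41 and 6.38 FPKM in Control, 5.20, 5.53 and 4.66 FPKM in GC, 4.09, 4.57 and 7.81 FPKM in ICB, and 5.83, 0.407 and 7.58 FPKM in Combination. Outside Combination replicate 2 it ranged over only 1.91 times from lowest to highest, as did Tgfb1. The order Tgfb1 over Tgfb3 over Tgfb2 held in 12 of 12 libraries, and Tgfb1 made up 58.0% to 76.6% of the FPKM of the 3 ligand genes.

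Inhba, which encodes the subunit that pairs into activin A, a related ligand that signals through the same SMAD2 and SMAD3, was the member whose GC libraries stood clear of Control. Inhba (chromosome 13, 16011851 to 16031621) was at 35.5, 35.5 and 21.4 FPKM in Control, 47.8, 49.04 and 42.8 FPKM in GC, 25.7, 54.9 and 59.7 FPKM in ICB, and 26.4, 12.7 and 84.3 FPKM in Combination. Every GC library lay above every Control library, while ICB had 1 library inside the Control range and 2 above it, and Combination had 1 below, 1 inside and 1 above. The difference between GC and Control was 0.62 ± 0.56 (limma estimate ± SE on log2(FPKM + 1), limma adjusted p = 0.792), and without Control replicate 3 it was 0.38. The separation was small beside the spread pooled over all groups, whose SD was 38.0 FPKM in Combination, 3.29 in GC and 8.16 in Control. With only GC and Control in the fit its unadjusted p was under 0.05, as for 18.8% of all genes (limma adjusted p = 0.223).

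Ltbp2, a matrix protein of elastic fibres that, unlike its relative LTBP1, does not bind latent TGF-beta, had the largest SD of the members. Ltbp2 (chromosome 12, 84783212 to 84876532) stood at 16.3, 18.7 and 6.85 FPKM in Control, 22.3, 17.5 and 17.6 FPKM in GC, 19.1, 12.1 and 20.4 FPKM in ICB, and 9.18, 1.36 and 22.1 FPKM in Combination. All groups overlapped. Its SD of log2(FPKM + 1) over the 12 libraries was 0.95. Without Combination replicate 2 it was 0.51, below those of Tgfbi (0.77), Inhba (0.58) and Tgfbr2 (0.55).

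Among the members, the profile of Tgfb1 was nearest to those of Tgfb2, Tgfb3 and Ltbp2. With each profile centred on its own mean over the 12 libraries, the root mean square difference was 0.29 on the log2 scale between Tgfb1 and Tgfb2, 0.30 between Tgfb1 and Tgfb3, 0.31 between Tgfb2 and Tgfb3 and 0.32 between Tgfb1 and Ltbp2, and all 4 profiles share the low Combination replicate 2. Ltbp2 was farther from Tgfb2 (0.54) and Tgfb3 (0.47). To set beside this likeness, the sequence upstream of the start is shown for Tgfb1 and for those of its nearest members that the RefSeq promoter table (GRCm38.p6, 7 of the 10 members matched) holds, 5′ to 3′ on the gene's strand. Capitals mark the SMAD-binding letters CAGAC or, on the other strand, GTCTG.
Tgfb1, chr7:25686752-25687001, plus strand: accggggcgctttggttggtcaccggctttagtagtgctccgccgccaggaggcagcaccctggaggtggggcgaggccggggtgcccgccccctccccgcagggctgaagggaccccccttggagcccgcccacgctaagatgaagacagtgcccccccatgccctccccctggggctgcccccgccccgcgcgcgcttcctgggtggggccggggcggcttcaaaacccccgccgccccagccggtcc
Tgfb2, chr1:186705990-186706239, minus strand: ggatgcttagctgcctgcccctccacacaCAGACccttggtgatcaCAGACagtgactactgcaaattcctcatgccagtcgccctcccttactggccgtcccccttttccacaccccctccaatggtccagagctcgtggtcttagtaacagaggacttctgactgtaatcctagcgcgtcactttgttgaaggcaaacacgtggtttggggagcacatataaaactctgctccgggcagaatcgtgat
Ltbp2, chr12:84876533-84876741, minus strand: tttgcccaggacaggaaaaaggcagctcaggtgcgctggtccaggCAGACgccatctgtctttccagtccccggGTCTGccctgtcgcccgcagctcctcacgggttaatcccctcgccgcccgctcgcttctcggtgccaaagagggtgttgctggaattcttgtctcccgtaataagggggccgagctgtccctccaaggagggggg
The Tgfb1 window has 0 such matches, and the Tgfb2 and Ltbp2 windows have 2 each. At least 1 match is present in 42.2% of the 32851 windows of 250 bases in that table, so the letters are common, and a match is a description and not a binding site. The Ltbp2 window is 209 bases long because its last bases lie in the gene as GENCODE M21 draws it.

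The receptors were expressed unequally. Tgfbr2 (chromosome 9, 116084293 to 116175360), the receptor that binds ligand first, stood at 15.2, 22.4 and 15.7 FPKM in Control, 8.83, 38.9 and 23.1 FPKM in GC, 18.9, 10.3 and 20.5 FPKM in ICB, and 18.6, 5.73 and 15.1 FPKM in Combination. Tgfbr1 (chromosome 4, 47353222 to 47414931), the kinase it recruits, stood at 2.80, 6.26 and 4.67 FPKM in Control, 6.25, 8.21 and 5.08 FPKM in GC, 4.90, 2.64 and 4.98 FPKM in ICB, and 5.03, 3.20 and 4.64 FPKM in Combination. Tgfbr2 was above Tgfbr1 in 12 of 12 libraries, by 1.41 to 5.41 times. Both were highest in GC replicate 2, and GC replicate 1 had the lowest Tgfbr2 outside Combination replicate 2, so Tgfbr2 spanned 4.41 times within GC. GC replicate 2 also had the highest summed endothelial, fibroblast, macrophage, skeletal muscle and platelet markers (99.2, 5004, 8281, 4162 and 306 FPKM). GC replicate 1, with its low Tgfbr2, had 35.5 FPKM of endothelial markers. Its 2825 FPKM of fibroblast markers lay above every Control library. The part of these cells in the receptor levels was not tested.

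Tgfbr1 was the member with the smallest unadjusted p between GC and Control, at a difference of 0.46 ± 0.31 (limma adjusted p = 0.692), which was 0.21 without Control replicate 1 and 0.30 without GC replicate 2. Between Combination and GC its samples did not overlap as deposited, with every Combination library below every GC library. The difference was -0.50 ± 0.31 (limma adjusted p = 0.347), and -0.16 under median ratio scaling. So scaled, the groups overlapped, with Combination replicate 2 at 5.68 against 4.68 in GC replicate 3. As deposited, Tgfbr1 was the member least affected by Combination replicate 2, standing there 1.51 times below the mean of the other Combination libraries. After the scaling it was highest there among the Combination libraries (4.58, 5.68 and 4.87 in replicates 1, 2 and 3).

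Smad7 (chromosome 18, 75367529 to 75395935), the inhibitory SMAD that blocks and degrades the active receptor, stood at 31.6, 25.6 and 17.0 FPKM in Control, 20.3, 12.1 and 19.4 FPKM in GC, 29.8, 20.05 and 26.7 FPKM in ICB, and 13.8, 3.81 and 25.8 FPKM in Combination. Its mean was lower in GC (17.3 ± 4.49 FPKM) and Combination (14.5 ± 11.01 FPKM) than in Control (24.7 ± 7.34 FPKM) and ICB (25.5 ± 4.97 FPKM), and all groups overlapped with Control. Smad7 had the smallest unadjusted p of the members for Combination against Control (-1.01 ± 0.51, limma adjusted p = 0.229) and against ICB (-1.08 ± 0.51, limma adjusted p = 0.263). Without Combination replicate 2 they were -0.33 and -0.39, and without Combination replicate 3 they were -1.57 and -1.63. With only Combination replicate 3 left in its group the signs turned, to 0.10 and 0.03, where that lone sample is assumed to vary like the other groups.

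Skil (chromosome 3, 31095058 to 31122577), the SMAD co-repressor, stood at 12.5, 22.7 and 7.14 FPKM in Control, 19.99, 13.6 and 14.8 FPKM in GC, 21.2, 15.1 and 21.7 FPKM in ICB, and 16.5, 4.81 and 15.7 FPKM in Combination. The Control libraries alone held both ends of the range outside Combination replicate 2. Skil had the smallest unadjusted p of the members for ICB against Control, at 0.55 ± 0.46 (limma adjusted p = 1), which was 0.17 without Control replicate 3 and 0.94 without Control replicate 2. Smad7 was above Skil in 9 of 12 libraries, the exceptions being GC replicate 2 and Combination replicates 1 and 2.

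Tgfbi was the most abundant member. Tgfbi (chromosome 13, 56609523 to 56639562) stood at 29.8, 174 and 157 FPKM in Control, 149, 211 and 123 FPKM in GC, 137, 93.6 and 124 FPKM in ICB, and 194, 29.0 and 84.9 FPKM in Combination. The low values were in Control replicate 1 and Combination replicate 2, while Combination replicate 1 was second only to GC replicate 2. These were also the libraries with the lowest summed macrophage markers (12 genes, all above 0 in every library), 479 FPKM in Control replicate 1 and 778 FPKM in Combination replicate 2, against 1430 to 8281 FPKM in the others. The part of macrophages in the Tgfbi level was not tested.

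Over the 12 libraries the members ranked Tgfbi (126 FPKM), Tgfb1 (78.1), Inhba (41.3), Tgfb3 (33.9), Smad7 (20.5), Tgfbr2 (17.8), Skil (15.5), Ltbp2 (15.3), Tgfb2 (5.26) and Tgfbr1 (4.89 FPKM). The ranges of neighbours in this order overlapped throughout. Among the tested genes the mean of Tgfbi lay at the 95.2 percentile and that of Tgfbr1 at the 28.8 percentile. Antisense or opposite-strand genes overlap Tgfb2, Tgfb3 (Ttll5), Ltbp2 and Inhba in GENCODE M21, and since it is not known whether strand was used in counting, their reads cannot be told apart.

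In FPKM as deposited, Combination replicate 2 carried less of almost the whole set. Of the 10 members 9 had their lowest value of the 12 libraries there, where 56.6% of all tested genes also had theirs, and the median member lay 2.13 log2 units below its own median over the libraries, against 0.71 units for the median tested gene. Against the mean of Combination replicates 1 and 3, Tgfb2 was 16.5 times lower, Ltbp2 11.5 times, Tgfb3 9.03 times, Tgfb1 6.99 times, Smad7 5.20 times, Tgfbi 4.81 times, Inhba 4.34 times, Skil 3.35 times and Tgfbr2 2.94 times. After median ratio scaling (factor 0.563 for this library), Tgfb1, Tgfb2, Tgfb3, Smad7 and Ltbp2 were still lowest there. Tgfbr2, Tgfbi, Inhba and Skil were not. Tgfbr2 was 10.2 there against 8.03 in GC replicate 1, and Tgfbi 51.5 against 31.6 in Control replicate 1. Control replicate 3 was lower for Inhba (19.3 against 22.7) and Skil (6.45 against 8.56). In Combination replicate 2 hepatocyte markers made up 20.1% of all FPKM, and fibroblast markers summed to 360 FPKM against 1021 to 5004 FPKM elsewhere. Bile duct and tumour markers summed to 618 FPKM against 1905 to 7804 FPKM. The sum elsewhere was mostly Spp1 (1761 to 7598 FPKM, against 276 FPKM there). Spp1 and Sox9 were lowest there, while Krt18 (189 FPKM) was the highest of the 12 libraries. The mean of that list on log2(FPKM + 1) was 3.16 there, inside the range of the other libraries (1.89 to 5.10). Which cells the Krt18 transcripts came from was not tested. The mean, which includes Krt18, therefore does not show how much bile duct or tumour tissue was present. Combination replicate 3, with 8.21% of its FPKM from hepatocyte markers, had the highest Tgfb1 and Inhba of all libraries. The part of tissue content in the member levels of these libraries was not tested. The deviation of every library from each gene's median is shown as a heat map.

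**Figure D2:**
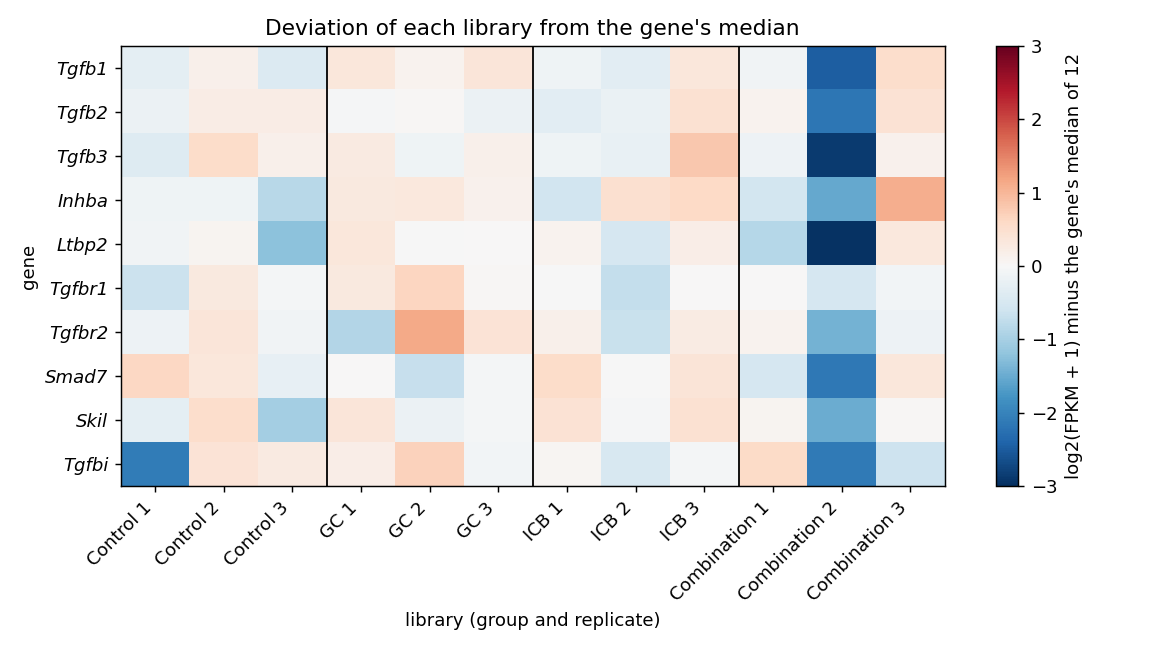
Colour gives log2(FPKM + 1) of each gene (rows) in each library (columns, grouped by treatment) minus that gene's median over the 12 libraries. The blue column is Combination replicate 2, and the blue cell of Tgfbi in Control replicate 1 marks its 29.8 FPKM.

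The effect of chemotherapy by itself was addressed by comparing GC with Control. Of the 10 members 7 had a positive difference, with a median of 0.38 and a range from -0.49 (Smad7) to 0.74 (Tgfbi), beside a median of 0.09 and 58.1% positive over all tested genes. limma called 0 members beside 0.00783% of all genes, and 0 members had an unadjusted p under 0.05, beside 9.86% of all genes. In 1 member, Inhba, all GC libraries lay above all Control libraries, which was so for 18.6% of all tested genes, and no member (0) had all GC libraries below, beside 9.29% of all. Between 6 and 9 members were positive under every other setting tried, but the median moved with single Control libraries. It was 0.15 without Control replicate 1, 0.64 without Control replicate 2, and without Control replicate 3 it was 0.12, next to 0.11 for all tested genes.

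The effect of blockade by itself was addressed by comparing ICB with Control, whose samples serve all 3 comparisons with Control. Of the 10 members 7 were positive, with a median of 0.11 and a range from -0.13 (Tgfbr2) to 0.55 (Skil), beside a median of -0.06 over all tested genes. This lean changed with single libraries: 5 members were positive without Control replicate 1 (median -0.05), without Control replicate 3 (0.0024) or without ICB replicate 3 (-0.0067), and 9 without Control replicate 2 (0.29) or without ICB replicate 2 (0.26), while without ICB replicate 1 the median was 0.19. limma called 0 members and 0% of all genes, with 1.75% of all genes at an unadjusted p under 0.05. No member (0) had groups that did not overlap, while 4.65% of all genes had every ICB library above and 4.67% every ICB library below Control.

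The effect of both treatments was addressed by comparing Combination with Control. Of the 10 members 9 were negative, with a median of -0.52 and a range from -1.06 (Tgfb3) to 0.04 (Inhba), beside a median of -0.29 over all tested genes. limma called 0 members beside 3.95% of all genes, of which 3.55% were higher and 0.4% lower in Combination. At an unadjusted p under 0.05 the count was 0 members beside 26.3% of all genes. Groups that did not overlap were seen in 0 members, beside 9.74% of all genes above and 13.2% below. The direction rested on Combination replicate 2. Without it 7 of 10 members were positive, with a median of 0.16, and the lowest adjusted p of a member was 0.554 (limma). Without Combination replicate 1 the median was -0.86, without Combination replicate 3 it was -0.90, and without Control replicate 2 it was -0.35 with 4 members positive. Scaling mattered as well, since rescaling by median ratios moved the median of all genes from -0.29 to 0.01 and left 4 of 10 members positive. With the mean level of the hepatocyte list added to the model 8 were positive. That mean was 0.87 to 2.04 on log2(FPKM + 1) in Control and at least 3.27 in every treated library. It therefore cannot be told apart from treatment in comparisons with Control.

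Combination was also compared with each treatment alone. Against GC, 0 of 10 members were positive and the median was -0.65 (all tested genes -0.36). limma called 0 members beside 0.666% of all genes (0.642% higher and 0.0235% lower), and at an unadjusted p under 0.05 the count was 0 members beside 16.5%. The largest difference was that of Ltbp2, -1.28 ± 0.66 (limma adjusted p = 0.318), which was -0.38 without Combination replicate 2, -2.03 without Combination replicate 3 and 0.21 with Combination replicate 3 alone in its group. As deposited, every Combination library was below every GC library for 1 member, Tgfbr1, and for 14.2% of all genes. The reverse held for 0 members and 4.16% of all genes. Against ICB, 1 of 10 members was positive, the median was -0.61 (all tested genes -0.21), and limma called 0 members beside 2.24% of all genes (2.05% higher and 0.188% lower). At an unadjusted p under 0.05 the count was 0 members beside 20.5%, and 0 members had groups apart, beside 9.47% of all genes above and 10.1% below. Without Combination replicate 2 the members split 4 positive of 10 against GC and 6 of 10 against ICB. Without Combination replicate 3 the medians were -1.06 and -1.12, and without Combination replicate 1 that against ICB was -0.99. The differences from Control are plotted with their intervals.

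**Figure D3:**
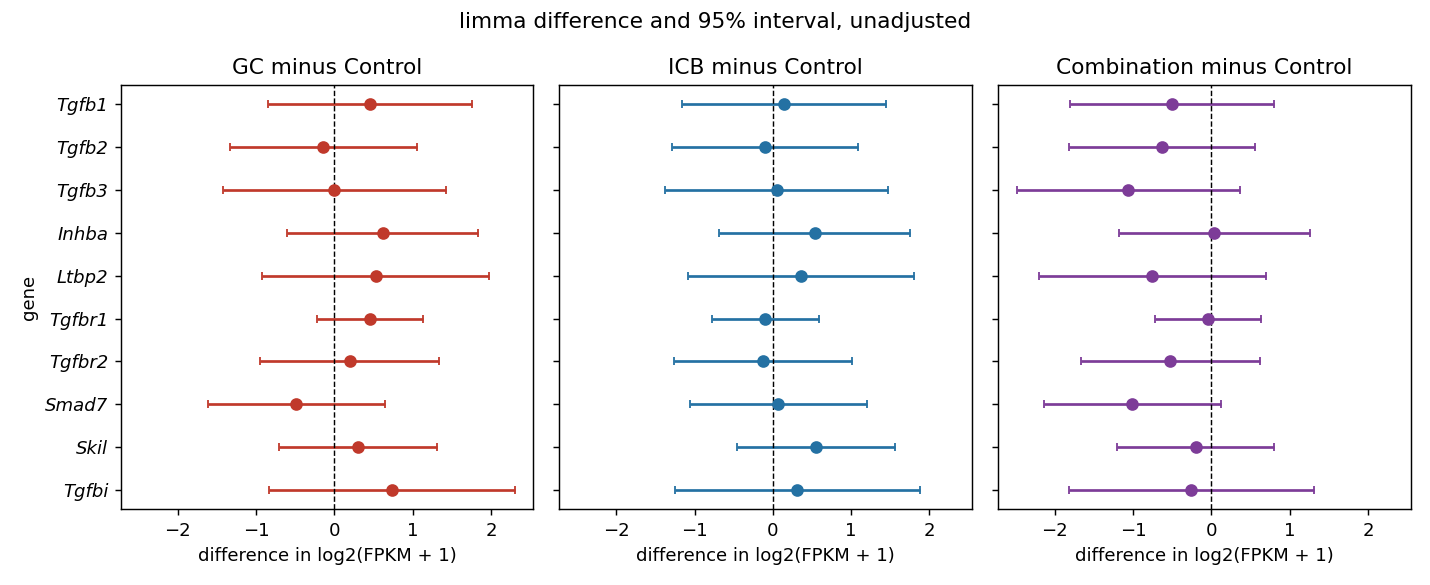
limma differences of log2(FPKM + 1) for each treatment minus Control (points) with unadjusted 95% intervals (bars), 1 row per gene. Every interval crosses 0, and the Combination points, which include replicate 2, lie mostly to the left.

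The intervals show what the data could not separate. For Tgfb1 the 95% interval of the difference ran from -0.85 to 1.75 for GC, from -1.15 to 1.45 for ICB and from -1.81 to 0.80 for Combination, so that for ICB a 2-fold change in either direction (1 log2 unit) lay inside the interval. Tgfbr1 had the narrowest intervals, from -0.22 to 1.14 for GC. A p above the threshold therefore does not show that the levels were alike. Single values of 3 libraries against 3 cannot go below p = 0.1 in an exact two-sided permutation test, so no such p is given.

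Ratios within a library do not depend on how that library was scaled, and Smad7 was taken as the denominator after its values had been seen. Tgfb1 over Smad7 was 2.05, 3.42 and 3.52 in Control, 4.95, 7.04 and 5.27 in GC, 2.42, 3.18 and 3.77 in ICB, and 5.31, 3.52 and 4.41 in Combination. Inhba over Smad7 was 1.12, 1.39 and 1.26 in Control, 2.36, 4.06 and 2.21 in GC, 0.865, 2.74 and 2.23 in ICB, and 1.91, 3.35 and 3.27 in Combination. The GC ratios of both lay above all Control ratios, and so did the Combination ratios of Inhba, while the lowest Combination ratio of Tgfb1 fell just below the highest Control ratio. Of the 9 other members 3 (Tgfb1, Inhba and Ltbp2) had GC ratios to Smad7 all above Control, beside 19.9% of 11745 genes taken over Smad7 in the same way. For ICB the count was 0 of 9 (2.24% of genes) and for Combination 1 of 9 (10.6%).

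**Figure D4:**
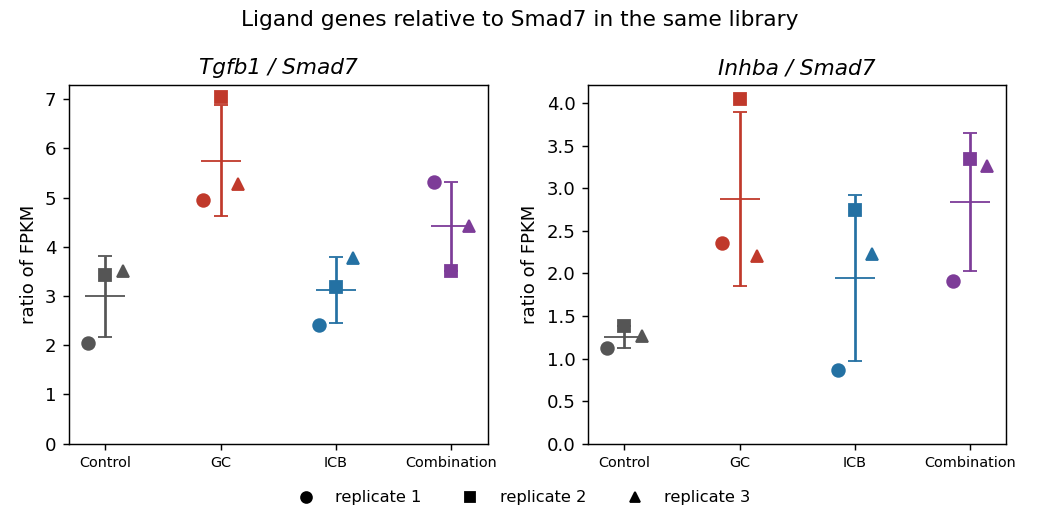
FPKM of Tgfb1 and of Inhba divided by that of Smad7 in the same library, with 1 point per library and bars for the mean ± SD of 3. GC ratios of Tgfb1 start at 4.95 where Control ends at 3.52, and GC ratios of Inhba start at 2.21 where Control ends at 1.39.

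The 3 members with the largest spread over the 12 libraries were compared with 9022 other tested genes of at least 5 FPKM for likeness of profile, again as the root mean square difference of centred log2 values. Nearest to Ltbp2 were Kctd11 (0.25), Timp3 (0.28) and Col5a1 (0.28). Nearest to Tgfbi were Jam3 (0.20), Apitd1 (0.22) and Fam111a (0.23), which shared its low values in Control replicate 1 (Jam3 at 1.76 FPKM) and Combination replicate 2 (Jam3 at 1.07 FPKM). Nearest to Tgfb3 were A4galt (0.20), Cx3cl1 (0.21) and Mrc2 (0.22). Of these 9 genes 8 had their lowest value in Combination replicate 2, the exception being Fam111a (Control replicate 1).

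Other genes of the pathway were taken from lists of latent storage and activation, further receptors, SMADs and regulators, activin and inhibin genes, and target genes. In the list of genes that store or activate latent TGF-beta, limma called 0 of 18 tested in any of the 5 comparisons. Its genes of smallest p against Control were Dcn and Lrrc32, both in GC. Dcn, decorin, a matrix proteoglycan that binds the ligand, averaged 182 ± 82.3 FPKM in GC against 54.4 ± 28.8 FPKM in Control (limma adjusted p = 0.212). Every GC library lay above every Control library, as for 18.6% of all genes. Dcn is also the 1 gene of this list in the fibroblast marker list, of which 13 of 15 genes were positive in GC with a median of 0.92. The part of fibroblast content was not tested. Lrrc32, which encodes GARP, the cell-surface anchor of latent TGF-beta, averaged 13.7 ± 3.40 FPKM in GC against 5.89 ± 4.48 FPKM in Control and its groups overlapped (limma adjusted p = 0.387).

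Of 9 further receptors and co-receptors limma also called 0. Tgfbr3, betaglycan, the co-receptor for TGF-beta 2, stood at 14.6, 7.58 and 10.9 FPKM in Control and 4.57, 1.65 and 4.96 FPKM in Combination. Its Combination libraries all lay below Control, as for 13.2% of all genes (-1.39 ± 0.35, limma adjusted p = 0.0524). It passed the threshold without Combination replicate 1 (0.0167), with a pseudocount of 0.1 (0.0484) and under quantile scaling (0.0315), while with the hepatocyte covariate its difference was -0.44 (0.795). Eng, endoglin, an endothelial co-receptor, averaged 16.8 ± 5.82 FPKM in GC against 7.53 ± 3.08 FPKM in Control (limma adjusted p = 0.344). Its GC libraries all lay above Control, as for 18.6% of all genes.

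Of 18 tested SMAD and regulator genes limma called 0. Smad4, the partner shared by all signalling SMADs, averaged 14.1 ± 5.10 FPKM in Combination against 24.1 ± 3.81 FPKM in Control (-0.79, limma adjusted p = 0.118). The difference passed without Combination replicate 1 (0.0476), and it was -0.47 without Combination replicate 2 (0.292) and -0.26 with the hepatocyte covariate (0.862). Ppm1a, a phosphatase that switches SMAD2 and SMAD3 off, averaged 26.6 ± 6.30 FPKM in GC against 41.7 ± 4.68 FPKM in Control (limma adjusted p = 0.414). Every Combination library lay below every Control library for Smad4 (as for 13.2% of all genes), and every GC library for Ppm1a (as for 9.29%).

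Of 8 activin and inhibin genes limma called 0. Fst, follistatin, the secreted protein that traps activin, stood at 5.47, 3.87 and 3.47 FPKM in Control, 10.4, 8.10 and 10.8 FPKM in GC, 8.27, 7.89 and 11.6 FPKM in ICB, and 5.82, 6.83 and 7.05 FPKM in Combination. Every treated library lay above every Control library. Taken singly, such a separation was seen for 18.6% of all genes in GC, 4.65% in ICB and 9.74% in Combination. The share for all treatments at once was not computed. The difference between GC and Control was 1.04 ± 0.23 (limma adjusted p = 0.157), and its adjusted p was 0.0498 without Combination replicate 1, 0.0429 with Combination replicate 3 alone in its group and 0.0388 with no Combination group in the fit. Inhbc, an activin subunit of hepatocytes, was listed at 0 throughout Control, while Combination replicates 1, 2 and 3 held 0.211, 38.0 and 15.4 FPKM, ranked as their hepatocyte markers were (limma adjusted p = 0.0907). Its adjusted p was 4.95e-05 without Combination replicate 1, 0.00193 with Combination replicate 3 alone in its group and 0.0362 with a pseudocount of 0.1, and with the hepatocyte list as a covariate its difference turned negative (-1.94).

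Among 19 tested target genes limma called 1 for Combination against Control and 0 in each of the other 4 comparisons. In that comparison 3.95% of all genes were called, so 1 of 19 is near the background. Snai2 (chromosome 16, 14705852 to 14709385), a transcription factor of mesenchymal change, rose from 0.295, 0.505 and 0.367 FPKM in Control to 2.47, 4.49 and 2.87 FPKM in Combination (1.60 ± 0.29, limma adjusted p = 0.0123). GC libraries held 2.36, 3.73 and 2.04 FPKM (1.39 ± 0.29, limma adjusted p = 0.153) and ICB libraries 0.875, 0.481 and 0.920 FPKM, and Combination against ICB missed the threshold (limma adjusted p = 0.0504). The call was lost without Combination replicate 2 (limma adjusted p = 0.0505), without the muscle-rich pair (0.0554), with only these groups in the fit (0.163) and with the hepatocyte covariate (0.315). Snai2 was therefore the single pathway gene past the threshold, at a low level.

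In GC the target list had 13 of 19 positive differences, a median of 0.88 against 0.09 for all tested genes, and 8 genes whose GC values all exceeded Control, beside 18.6% of all genes. The other lists did not lean alike in GC. Positive differences numbered 11 of 18 for storage and activation (median 0.25) and 7 of 8 for activin and inhibin genes (0.53). They numbered 2 of 9 for further receptors (-0.28) and 3 of 18 for SMADs and regulators (-0.21). In the receptor list and in the SMAD list, 5 genes each had every GC library below Control, beside 9.29% of all genes. In Combination the median of the target list was -0.58, against -0.29 for all tested genes. Fibroblast marker sums were 1021 to 2027 FPKM in Control, 2825 to 5004 FPKM in GC and 360 to 1745 FPKM in Combination. However, 4 of the target genes (Col1a1, Col1a2, Col3a1 and Postn) are in that marker list and make up much of its sum. In GC replicate 2, Col1a1, Col1a2 and Col3a1 stood at 1683, 1176 and 1131 FPKM of a sum of 5004 FPKM. The sums therefore partly repeat the target list. The part of fibroblast content in the target gene differences was not tested. The differences of all listed genes are plotted by list.

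**Figure D5:**
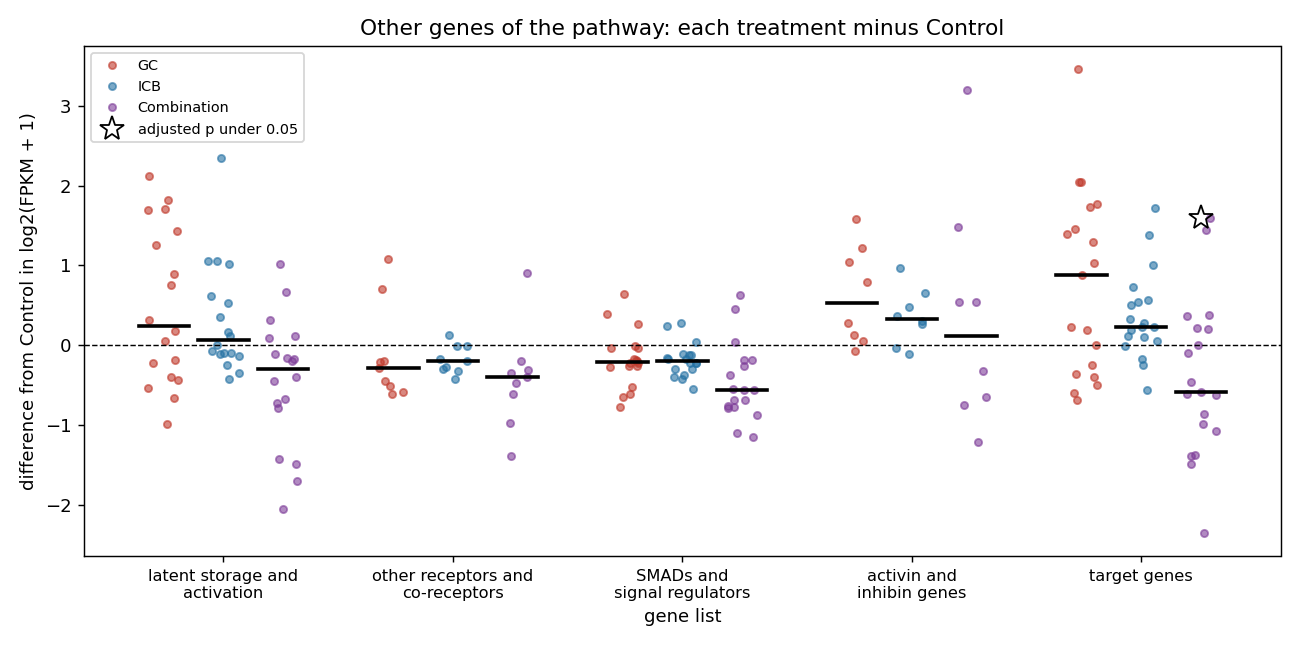
limma differences of log2(FPKM + 1) from Control for each tested gene of 5 pathway lists (points), by treatment, with a line at each median. The target genes have a median of 0.88 in GC and -0.58 in Combination, and the star marks Snai2.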

How the data were processed

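Total RNA was extracted from 12 tumours and sequenced as strand-specific libraries (Qiagen), per the labels' protocols. The deposited values were FPKM, 1 per gene symbol and sample, per the file headers, and FastQC, cutadapt, HISAT2, SAMtools and HTSeq with the mm10 genome are named in the submitters' processing notes without versions. Which step made FPKM and whether strand was used are not given in the sources used here. Low values (up to 0.1 FPKM) showed no whole-read steps over 66 library pairs (fullest bin a median of 11.1% of genes), so depth is unknown, its precision cannot be given and no count model was used. Groups came from the sample titles.

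Values were analysed as log2(FPKM + 1), on which changes of low genes look smaller than they are, with limma 3.58.1 in R 4.3.3: 12765 genes averaging 1 FPKM or more, 1 mean per group of 3, 8 residual degrees of freedom, intensity trend, Benjamini-Hochberg adjustment over all tested genes, threshold 0.05. All 10 members passed the filter. The step was run on simulated data in which 200 of 12765 genes were changed between GC and Control. It called 12% of 2-fold, 56% of 4-fold, 92% of 8-fold and 96% of 16-fold changes, and 6 unchanged genes. The simulated noise was independent between genes, without the library-wide shifts of the real libraries. Only genes with a mean log2(FPKM + 1) over 2 were changed, and on that scale. These rates therefore do not give the power or error rate for the real data. The members, lists and tests were chosen with earlier results of these data known. By rule, a member's difference was to be given where its unadjusted p was under 0.05 or its groups were apart by at least 1 log2 unit, and no member met it, so the differences printed (smallest p per comparison, or groups apart) were chosen after values were seen. The list genes named are those called or, with none called, the 2 of smallest p against Control. Alternatives covered the pseudocount, filter, scaling, trend, samples in the fit, replicate block and a hepatocyte covariate, and 2 were added after seeing the data (Combination replicate 3 alone in its group, and no Combination group). The hepatocyte covariate did not overlap between Control and treated libraries, so differences from Control fitted with it are extrapolated. Locations are from GENCODE M21 (GRCm38).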

Additional observations from a re-analysis of the deposited data

How the results depend on the processing

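The count of members called stayed at 0 in each of the 5 comparisons and in the F test under all alternatives run (22 to 24 for each), with the lowest adjusted p at 0.0723 (limma, Tgfbi for GC against Control with the hepatocyte covariate). Leaving out any single replicate kept it at 0. Among the differences chosen for printing, signs turned with Combination replicate 3 alone in its group for Smad7 against Control (0.10) and against ICB (0.034) and for Ltbp2 against GC (0.21). For Inhbc the sign turned with the hepatocyte covariate (-1.94). Other member differences changed sign as well. For example, Tgfb3 was positive in 5 of 25 fits for GC against Control. For Combination against Control, Skil was positive in 6 of 24 fits and Inhba in 21 of 24. The cause was not tested. The number of all genes called moved far more. It was 1 for GC against Control (0 to 665 under the alternatives), 0 for ICB (0 to 34), 504 for Combination (89 to 3322), 85 for Combination against GC (3 to 3148), 286 for Combination against ICB (37 to 2166) and 233 for the F test (105 to 1962), the highest for GC with the hepatocyte covariate, for ICB with only those groups in the fit and for the others without Combination replicate 1.

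Replicate numbers were taken from the sample titles. The column headers number the Control libraries and replicate 3 of GC and of Combination differently, and matching by those numbers was not tried. Correlations of the deviations of samples with the same title number ran from -0.24 to 0.42 over 18 pairs, 8 of them over 0.1. Of the 12 libraries 6 correlated best with their own number. With the replicate block 0 members were called in every comparison. Tgfbr1 has no value under the filter of 5 FPKM, nor has Snai2, and fits without Combination give none of its differences. Depth is unknown, and 3 libraries per group limit the precision.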
